A study of Mus musculus with 8 samples.

Results

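The miR-15 and miR-16 family was followed in mouse liver through its 6 members on the array, mmu-miR-15a, mmu-miR-15b, mmu-miR-16, mmu-miR-195, mmu-miR-322 and mmu-miR-497. They were picked by name and shared seed from the 577 miRNAs of the array (567 of the mouse and 10 of viruses). The rule uses no measured value, but the family was chosen for description with earlier results of these data known. All 6 carry the same seed, the stretch at bases 2 to 8 through which a miRNA finds its targets. The study compared livers of 4 db/db mice with livers of 4 db/+ mice, 1 array per animal. The db allele is a defect of the leptin receptor gene: db/db mice are homozygous for it and become obese and diabetic, and the db/+ controls are heterozygous, so both groups carried the allele. The labels place the db/db line on the C57BL/KsJ background and give neither the age nor the sex of the animals. Whole frozen liver was extracted, so fewer cells of a type and less of a miRNA per cell cannot be told apart.

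A miRNA is cut from a hairpin RNA and guides a silencing complex to messenger RNAs that pair with its seed, which lowers their translation and stability. miRNAs with a common seed can act on many of the same messages. The miR-15 and miR-16 family is best known for restraining cell division and survival, through cyclins, cyclin-dependent kinases and the survival factor BCL2, and the Dleu2 cluster that encodes miR-15a and miR-16 is often lost in chronic lymphocytic leukaemia. In the heart, miR-195 has been linked to the end of cell division after birth. miR-322 is the mouse counterpart of human miR-424.

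The mature sequences of the 6 members are shown because the seed defines the family and because the bases after it, by which array probes tell the members apart, differ. They are RefSeq sequences (GRCm38.p6), written 5′ to 3′, with the seed in capitals. All 6 members were matched by name.
miR-15a: uAGCAGCAcauaaugguuugug
miR-15b: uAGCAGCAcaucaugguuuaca
miR-16: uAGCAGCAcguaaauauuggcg
miR-195: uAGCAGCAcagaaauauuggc
miR-322: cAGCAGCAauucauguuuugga
miR-497: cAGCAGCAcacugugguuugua

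The first base was U in 4 members and C in 2, miR-322 and miR-497. Compared base by base from the 5′ end without gaps, miR-16 and miR-195 were the closest pair, with 19 of 21 bases identical. miR-15a and miR-15b shared 18 of 22 bases. miR-16 and miR-497 shared 11 of 22, and miR-195 and miR-322 shared 11 of 21, which were the least alike pairs. In RefSeq the seed stood at bases 2 to 8 of 10 mature miRNA names of 1679; the other 4 of these names were not on the array. A further pair, miR-103 and miR-107, which are best known in liver for their link to insulin signalling, hold the same 7 letters from base 1 instead of base 2. miR-503, encoded beside miR-322, differs from the seed at its last letter. These 3 relatives are shown with the stretch that lines up with the family's seed in capitals.
miR-103: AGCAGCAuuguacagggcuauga
miR-107: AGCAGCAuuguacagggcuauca
miR-503: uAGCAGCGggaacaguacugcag

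The members come from 4 chromosomes. In the RefSeq gene table miR-15a and the first copy of miR-16 lay inside Dleu2 on chromosome 14, and miR-15b and the second copy of miR-16 lay inside Smc4, which encodes a condensin subunit, on chromosome 3. Mature miR-16 was therefore measured as the sum over 2 gene copies. miR-195 and miR-497 lay on chromosome 11 with no enclosing gene in that table. miR-322 lay inside the non-coding gene C430049B03Rik on the X chromosome, together with miR-503. The array's own target coordinates (mm9, per the file headers) were chr14:62250912-62250933 for miR-15a, chr14:62250773-62250790 for miR-16, chr3:68813699-68813718 for a miR-15b probe, chr11:70048566-70048584 for miR-195, chr11:70048234-70048253 for miR-497 and chrX:50407483-50407504 for miR-322.

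Each member was measured by 2 probes of 10 spots each. Array brightness differed widely: the factor used to scale the arrays was 5.63, 0.564, 1.58 and 0.210 on db/+ replicates 1 to 4 and lay between 0.847 and 1.06 on the db/db arrays. The 8 arrays shared 1 slide, where the db/+ livers occupied its row 2 and the db/db livers its row 1; strain and row cannot be told apart. The precision is limited by the number of arrays, 4 per strain. Levels are log2 scaled signals unless stated otherwise, n = 4 per strain, and are read within a member and not between members.

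All 6 members were detected on all 8 arrays, and none passed the test between the strains. Of the 127 miRNAs tested, 19 differed at an adjusted p under 0.05 (limma, Benjamini-Hochberg over the 127). 12 of these were higher in db/db, 9.45% of those tested, against 0 of 6 members, and 7 were lower, 5.51%, again against 0 of 6 members. No member had an unadjusted p under 0.05 either, against 33 of all tested miRNAs, and SAM, the test named in the series text, called 18 miRNAs and 0 members. Values of the strains did not overlap for 29 miRNAs, 22.8% of those tested, and overlapped for all 6 members. The difference, db/db minus db/+, was above 0 for 4 members and below 0 for 2, with a median of 0.02 on the log2 scale. The median over all tested miRNAs was 0.15, and 84 of the 127 lay above 0.

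miR-15a, of the Dleu2 cluster, had log2 scaled signals of 9.50, 10.11, 9.61 and 9.78 on db/+ replicates 1 to 4 and of 9.58, 9.38, 9.53 and 9.32 on db/db replicates 1 to 4. The 4 db/db values lay below the db/+ mean, and the strains overlapped because db/+ replicate 1 was low. Means were 9.75 ± 0.27 in db/+ and 9.45 ± 0.12 in db/db (SD). The difference was -0.30 (SE 0.17, 95% confidence interval -0.67 to 0.07, limma adjusted p = 0.271). In linear terms this was 1.23-fold lower in db/db, and the interval ran from 1.59-fold lower to 1.05-fold higher.

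miR-16, from the same cluster and from its second copy on chromosome 3, had log2 scaled signals of 8.61, 9.09, 8.88 and 8.95 in db/+ and 8.79, 8.81, 8.95 and 9.03 in db/db. The strains lay on top of each other. The means were 8.88 ± 0.20 and 8.89 ± 0.12, and the difference was 0.01 (SE 0.15, limma adjusted p = 0.968). Its interval, -0.32 to 0.35, covers 1.25-fold lower to 1.27-fold higher, so these arrays do not exclude differences up to that size.

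miR-15b, encoded in Smc4 beside the second copy of miR-16, had log2 scaled signals of 8.41, 9.26, 8.26 and 9.21 in db/+ and 8.94, 9.12, 9.28 and 9.20 in db/db. The db/+ arrays fell into a low pair, replicates 1 and 3, and a high pair, replicates 2 and 4, while the db/db arrays lay together near the high pair. The means were 8.79 ± 0.52 and 9.14 ± 0.15, a difference of 0.35 (SE 0.24, interval -0.20 to 0.90, limma adjusted p = 0.353). All 4 db/db values were above the db/+ mean. The value depended on single arrays: it was 0.17 without db/+ replicate 3 (limma adjusted p = 0.673), 0.22 without db/+ replicate 1 (limma adjusted p = 0.585) and 0.51 without db/+ replicate 2 (limma adjusted p = 0.218). Without db/+ replicates 1 and 4 together it was 0.32 (limma adjusted p = 0.354). Under limma's array weights it was 0.66 and passed (adjusted p = 0.0174). Over all 31 alternatives the adjusted p ranged from 0.0174 to 0.993 and 3 gave a call for miR-15b; 1 of these leaves out db/+ replicates 2 and 4, the pair where miR-15b was highest, so that its larger difference follows from the arrays removed.

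miR-322, on the X chromosome, had log2 scaled signals of 6.55, 6.90, 5.89 and 7.05 in db/+ and 6.09, 6.20, 6.06 and 6.01 in db/db. The db/db values lay within a narrow band, and 3 of the 4 db/+ values were above all of them; db/+ replicate 3 was below them. Means were 6.60 ± 0.51 and 6.09 ± 0.08, and the difference of -0.51 (SE 0.24, interval -1.04 to 0.02, limma adjusted p = 0.191) was the lowest among the members, or 1.42-fold lower in db/db. By p it ranked 38 among the 127 tested miRNAs, the first of the members. Without db/+ replicate 3 the difference was -0.74 and passed the test (limma adjusted p = 0.0132); that was the only one of the 31 alternatives that called miR-322.

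The chromosome 11 pair had similar profiles across the arrays, and miR-140, from outside the family, was about as similar to each of them. miR-195 had log2 scaled signals of 6.77, 7.31, 6.69 and 7.50 in db/+ and 7.24, 7.10, 6.89 and 7.12 in db/db, with a difference of 0.02 (SE 0.21, interval -0.44 to 0.48, limma adjusted p = 0.954). miR-497 had 6.15, 6.70, 5.98 and 6.86 in db/+ and 6.76, 6.46, 6.53 and 6.54 in db/db, with a difference of 0.15 (SE 0.21, interval -0.32 to 0.62, limma adjusted p = 0.684). For both, db/+ replicates 2 and 4 were higher than replicates 1 and 3, and the db/db arrays lay between these pairs, except that miR-497 on db/db replicate 1 (6.76) was also above db/+ replicate 2.

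**Figure D1:**
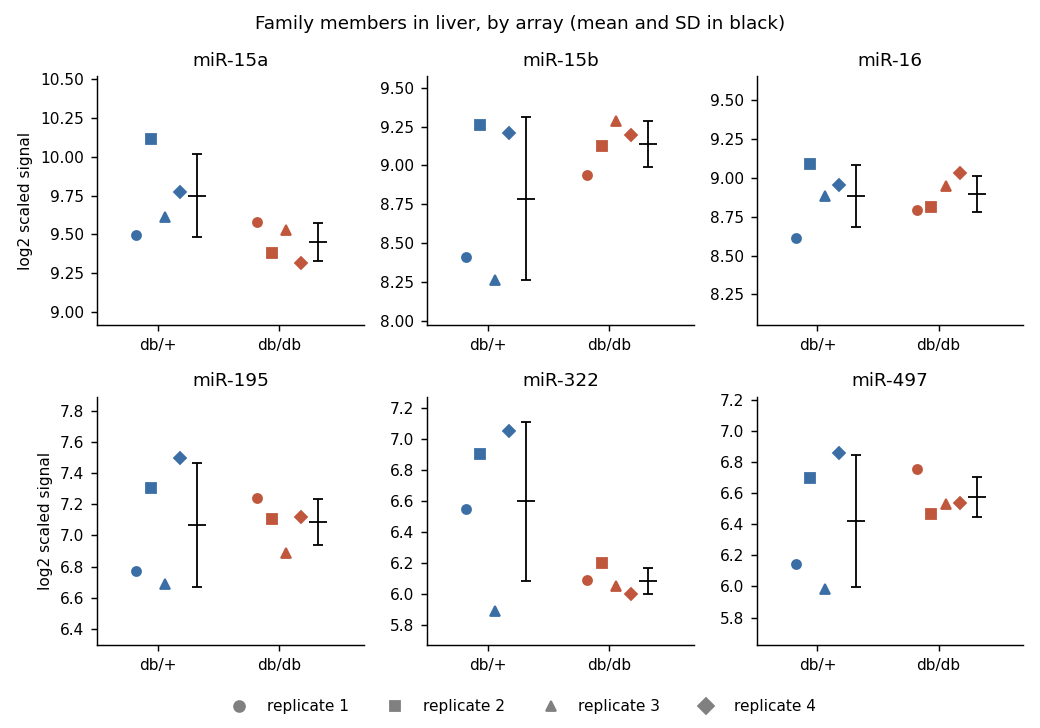
Log2 scaled signal (y axis) of each family member on the 4 db/+ and 4 db/db arrays, with marker shape for the replicate and black bars for the mean and SD of each strain; each panel spans the same range of log2 units. The db/+ values spread more than the db/db values for 6 of 6 members, and db/+ replicates 2 and 4 lie above replicates 1 and 3 in every panel.

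The spread within db/+ had a common form. All 6 members were higher on db/+ replicates 2 and 4 than on replicates 1 and 3, which was also true of 61 of the 127 tested miRNAs (48.0%). Replicates 2 and 4 were the dimmest arrays of the series and replicates 1 and 3 the brightest. The SD was larger in db/+ than in db/db for 6 of 6 members, by 1.74 to 6.18 times, and for 106 of the 127 tested miRNAs (83.5%, median ratio 1.98). The part of array brightness in the members' differences between strains was not tested beyond the alternatives named with them.

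Before scaling, the arrays' brightness dominated the members. miR-15a had processed signals of 4070, 625, 1232 and 184 on db/+ replicates 1 to 4 and of 648, 709, 733 and 677 in db/db. miR-322 had 526, 67.3, 93.7 and 27.9 in db/+ and 57.7, 78.3, 66.1 and 68.2 in db/db. The dimmest and the brightest array were both of db/+, so the strains could not be read from unscaled signals.

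**Figure D2:**
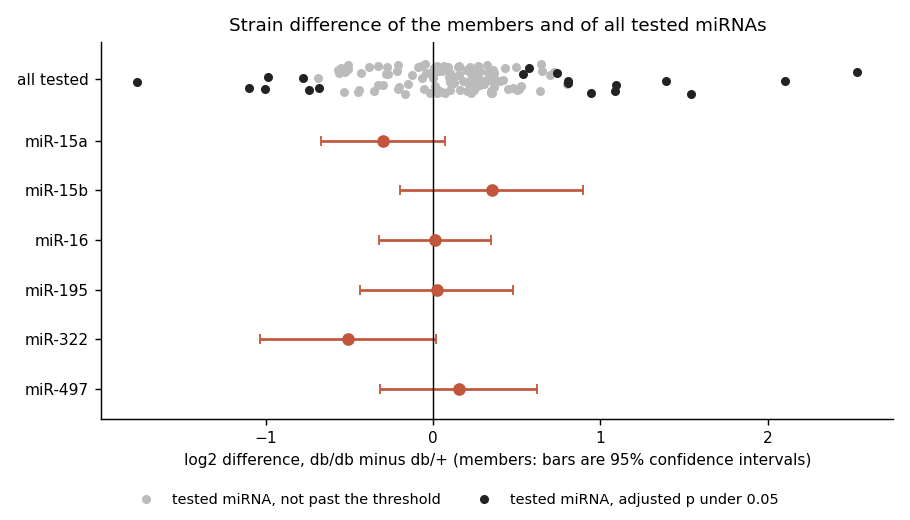
Log2 difference between the strains, db/db minus db/+ (x axis), for each member with its 95% confidence interval and, in the top row, for all 127 tested miRNAs, with the 19 past the threshold in black. The intervals of all 6 members include 0, and that of miR-322 reaches from -1.04 to 0.02.

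The 2 probes of a member gave further detail. In a limma fit over 271 single probes, 25 passed an adjusted p under 0.05, which is 9.23% of them, against 1 of the 12 probes of the members. That probe was the dimmer one of miR-15b, with log2 scaled signals of 7.47, 7.67, 7.63 and 7.60 in db/+ and 7.90, 8.00, 8.17 and 8.13 in db/db. Its strains did not overlap, as for 45 of the 271 probes (16.6%) and for 1 of the 12 probes of the members, and it was 1.37-fold higher in db/db (difference 0.45, SE 0.09, limma adjusted p = 0.0263). The call was fragile: the difference stayed above 0 under all 16 other scalings and choices of arrays, from 0.30 to 0.50, and kept an adjusted p under 0.05 in 2 of them. The brighter miR-15b probe had 8.98, 10.00, 8.70 and 9.95 in db/+ and 9.53, 9.75, 9.90 and 9.81 in db/db, with a difference of 0.34 that did not pass (limma adjusted p = 0.547). The low and high db/+ pairs of miR-15b appeared in its brighter probe and not in its dimmer one. The file headers give no mapped coordinates for its dimmer probe.

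No other member probe passed the limma test. Both miR-322 probes lay below 0, at -0.46 (adjusted p = 0.215) and -0.53 (adjusted p = 0.304), and both miR-15a probes at -0.27 (adjusted p = 0.269) and -0.32 (adjusted p = 0.251). miR-16 was the only member whose probes had opposite signs, at -0.06 and 0.03. The dimmer probes of miR-195 and miR-497 reached the limit of the dimmest array, db/+ replicate 4, where none of their spots was well above background. The dimmer miR-497 probe had none on db/+ replicate 2 either. On db/+ replicate 4 the dimmer miR-322 probe had only 2 spots well above background, and the brighter one had 8. That array gave the highest miR-322 value (7.05).

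The gap between the brighter and the dimmer probe of a member is a ratio within an array, which no scaling factor can move. For miR-15b it was 1.51, 2.33, 1.06 and 2.35 log2 units on db/+ replicates 1 to 4 and between 1.64 and 1.75 in db/db. For miR-15a it was 0.33 and 0.34 on db/+ replicates 2 and 4 and between 0.19 and 0.24 on the other 6 arrays. For both of these members the gap was larger on db/+ replicates 2 and 4 than on every other array, with at least 7 spots of each probe well above background on each array. The gaps of miR-195 and miR-497 were also larger there, but their dimmer probes were at background on db/+ replicate 4, and that of miR-497 on db/+ replicate 2, so these gaps are not read. For miR-16 the gap showed no such difference, at 1.81, 1.65, 1.66 and 1.60 in db/+ and 1.75 to 1.78 in db/db. The miR-322 gap was 0.60, 1.25, 0.39 and 0.68 in db/+ and 0.60 to 0.72 in db/db. It was largest on db/+ replicate 2 and higher on db/+ replicates 2 and 4 than on replicates 1 and 3. On db/+ replicate 4 the dimmer miR-322 probe had only 2 spots well above background. For miR-15a and miR-15b the ratio of the probes thus differed between arrays of different brightness.

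**Figure D3:**
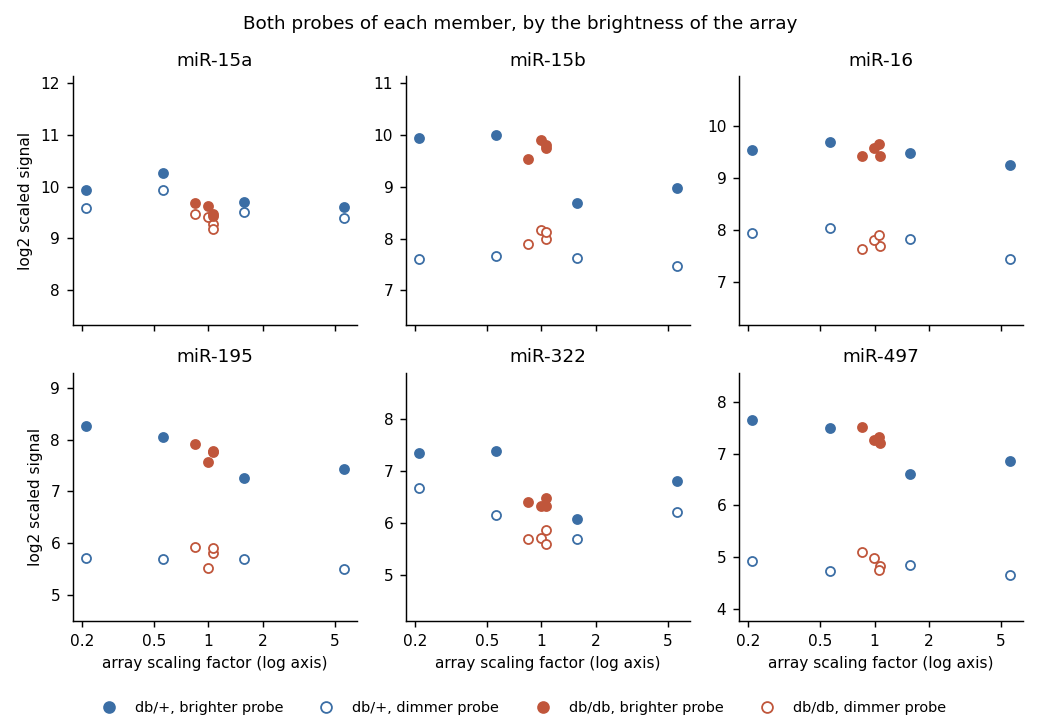
Log2 scaled signal (y axis) of both probes of each member against the scaling factor of the array (x axis, log scale, from 0.210 to 5.63), with filled points for the brighter probe, open points for the dimmer probe and colour for the strain. The brighter miR-15b probe is near 10 on the dim db/+ arrays and near 9 on the bright ones, whereas its dimmer probe is lower on all 4 db/+ arrays (7.47 to 7.67) than on all 4 db/db arrays (7.90 to 8.17).

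Ratios between members within an array were compared to ask whether the members differed from one another in their response, without any scaling. Such a ratio can still differ with array brightness, as the probe ratios of miR-15a and miR-15b did. The values of miR-195, miR-322 and miR-497 include dimmer probes that were at or near background on db/+ replicate 4. The part of array brightness in the ratios was not tested. Of 15 pairs, 0 passed after adjustment over the 15 (two-sided exact permutation tests over 70 divisions of the arrays). The smallest p that the design allows, 0.0286, would have to be reached by 9 pairs to pass; 3 pairs reached it, with an adjusted p of 0.143, and each of these held miR-322. The log2 ratio of miR-15b over miR-322 was 1.86 to 2.37 in db/+ and 2.85 to 3.23 in db/db, so its strains did not overlap. It averaged 2.19 ± 0.24 and 3.05 ± 0.19 (SD, n = 4), a difference of 0.86 or 1.81-fold (exact permutation p = 0.0286). The ratio of miR-322 over miR-497 averaged 0.18 ± 0.20 in db/+ and -0.49 ± 0.17 in db/db, a difference of -0.66 (exact permutation p = 0.0286). The ratio of miR-195 over miR-322 averaged 0.47 ± 0.24 and 1.00 ± 0.16, a difference of 0.53 (exact permutation p = 0.0286). All 3 kept their direction in all 25 alternatives run for the pairs. Part of these could not turn a ratio: a scaling factor cannot move it, and summed probes and other floors left all 3 unchanged. Other alternatives changed their size. With raw median intensities miR-195 over miR-322 differed by 0.28 and miR-322 over miR-497 by -0.31, the latter by -0.38 with normexp background correction.

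Pairs whose genes lie together were compared in the same way. Because miR-16 was measured as the sum over 2 gene copies, its ratios are not those of a single transcript. miR-15a over miR-16, whose first copy lies with miR-15a in Dleu2, differed by -0.31 between the strains (exact permutation p = 0.0571, adjusted 0.143). miR-15b over miR-16, whose second copy lies with miR-15b in Smc4, differed by 0.34 (exact permutation p = 0.171, adjusted 0.234). miR-195 over miR-497, together on chromosome 11, differed by -0.13 (exact permutation p = 0.0857, adjusted 0.143). This ratio had an SD of 0.04 among the db/+ arrays and of 0.12 among the db/db arrays. The paralogues miR-15a and miR-15b, which differ in 4 of their 22 bases, differed by -0.65 in their ratio (exact permutation p = 0.0571, adjusted 0.143): it was 0.56 to 1.35 in db/+ and 0.12 to 0.64 in db/db. miR-16 over miR-195, the closest pair in sequence, differed by -0.01 (exact permutation p = 0.914).

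**Figure D4:**
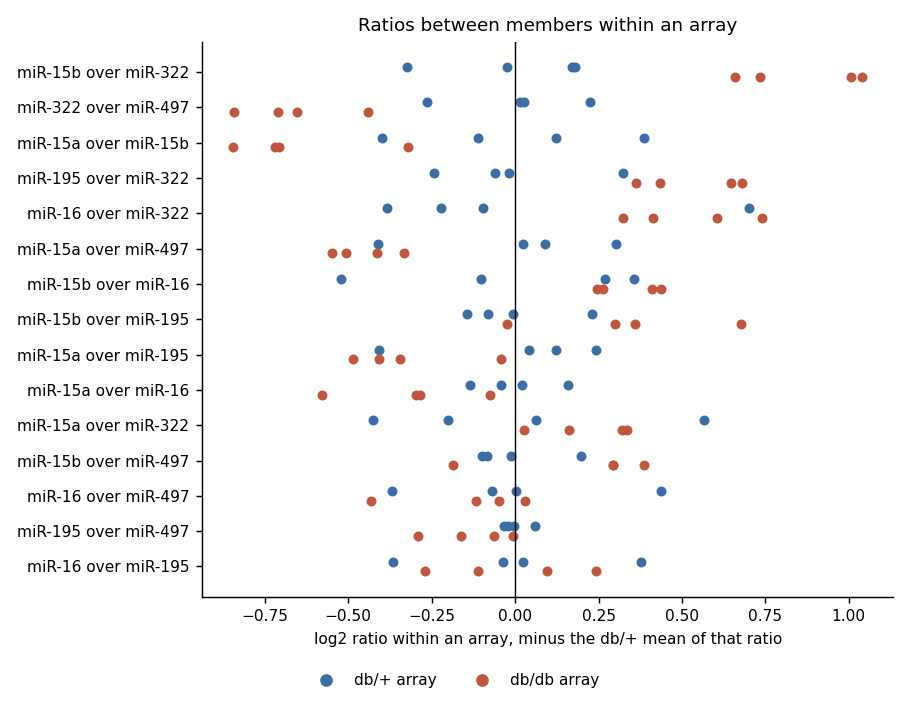
Log2 ratio of 2 members within an array, as the distance from the db/+ mean of that ratio (x axis), for the 15 pairs of members on the 4 db/+ and 4 db/db arrays, ordered by the size of the strain difference. The strains do not overlap for miR-15b over miR-322, miR-322 over miR-497 and miR-195 over miR-322, and overlap almost fully for miR-16 over miR-195.

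To find which other miRNAs followed the members across the 8 arrays, each miRNA detected on all of them was centred on its mean, and the root mean square difference of log2 signals was taken between each member and 83 miRNAs outside the family. These distances are descriptions over 8 arrays that share their scaling and brightness. miR-15b was closest to miR-92a (0.09), miR-151-5p (0.11) and miR-22 (0.12). miR-15a was closest to miR-20a (0.12), miR-29c (0.14) and miR-19b (0.18), and miR-16 to miR-24 (0.11), miR-126-3p (0.13) and let-7g (0.15). miR-195 and miR-497 were each other's nearest member (0.10), and their closest miRNA outside the family was miR-140 for both, at 0.13 and 0.12. miR-195 was then followed by miR-192 (0.15) and miR-24 (0.16), and miR-497 by miR-92a (0.16) and miR-192 (0.16). miR-322 stood farthest from other profiles: its closest were miR-29a (0.18), miR-27a (0.25) and miR-10a (0.25), and its closest member was miR-15a (0.30).

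The related miRNAs that hold the family's seed from base 1 did pass the test. miR-103 had log2 scaled signals of 8.13, 8.43, 8.17 and 8.22 in db/+ and 8.66, 8.77, 8.99 and 8.83 in db/db, and rose by 0.58 (SE 0.14, limma adjusted p = 0.022). miR-107 had 9.06, 9.62, 9.38 and 9.68 in db/+ and 9.97, 10.20, 10.27 and 10.25 in db/db, and rose by 0.74 (SE 0.17, limma adjusted p = 0.0164). Neither overlapped between the strains. Both were higher in db/db under all 31 alternatives, some of which cannot move a difference. miR-103 was called in 15 of the 31 and miR-107 in 19. Whether their change differs from that of the 6 members was not tested.

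The other strands of the hairpins and the neighbours of miR-322 were near the limit of the array. miR-15a*, miR-15b*, miR-16* and miR-322* are on the array, and 0 of the 4 were flagged as detected on any array, so only the guide strands of the family were measured. Of 9 neighbours of miR-322 on the X chromosome, miR-503, miR-542-3p, miR-542-5p and miR-450a-5p were each detected on 1 array, the brightest (db/+ replicate 1), and the other 5 on no array. None of the 9 was tested. The direction of miR-322 could therefore not be set beside that of its cluster.

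Other miRNAs known for restraining cell growth were read as a list beside the family. Of 18 on the array 15 were tested; 3 rose and 1 fell, and the median difference was 0.28. miR-34a, whose gene p53 activates, rose by 2.54 (limma adjusted p = 0.00017), and the relatives miR-103 and miR-107 were the other risers. let-7e, of the let-7 family of developmental timing, fell by 1.00 (limma adjusted p = 0.00633). Of 12 miRNAs known for promoting growth 9 were tested, 0 rose and 1 fell, with a median of 0.05. That was miR-21, which fell by 0.78 (limma adjusted p = 0.00846). Each kept its direction in all 31 alternatives, some of which cannot move a difference. miR-34a was called in 30 of the 31, let-7e in 26 and miR-21 in 23. These lists were chosen with results of these data known, and their counts stand beside the 19 of 127 tested miRNAs that were called.

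Markers of liver cell types were read from the same fit. The hepatocyte miRNAs miR-122, miR-192 and miR-194 were detected on every array and 0 of 3 passed the test, and 0 of 5 skeletal and heart muscle miRNAs were detected on any array. Of 7 leukocyte miRNAs 4 were tested, and miR-142-3p (fell by 1.10, limma adjusted p = 0.0164) and miR-223 (fell by 0.74, limma adjusted p = 0.0434) passed. Both lay below 0 in all 31 alternatives, some of which cannot move a difference. miR-142-3p was called in 19 of the 31 and miR-223 in 14. The other tested leukocyte miRNAs did not pass: miR-146a differed by -0.04 (limma adjusted p = 0.909) and miR-342-3p by -0.54 (limma adjusted p = 0.321). The summed leukocyte signal was 9.00 to 9.57 on the db/+ arrays and 8.33 to 8.71 on the db/db arrays, on the log2 scale. This sum includes miR-142-3p and miR-223, so it is not a separate result. Within these same arrays the differences of miR-15a and miR-322 were below 0 and that of miR-15b above 0, none of them past the test. No direction was read for miR-16, miR-195 and miR-497. The part of leukocyte content in the members' values was not tested. None of the tested endothelial (2 miRNAs), stellate and smooth muscle (3) and erythroid (1) markers passed. Of 3 neural miRNAs only miR-128 was detected, and it was not tested.

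The authors' deposited values per miRNA, on a log scale whose base is not stated, were read beside the scanner values. In the authors' deposited table miR-322 had values of 1.61, 1.55, 1.46 and 1.56 in db/+ and 1.42, 1.48, 1.41 and 1.37 in db/db, where only db/+ replicate 3 lay within the db/db range. miR-15b had 2.04, 2.10, 2.02 and 1.97 in db/+ and 2.08, 2.17, 2.17 and 2.11 in db/db in the authors' deposited table. A limma fit of those values called 3 miRNAs and 0 members.

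The members' directions were compared across 31 other ways of processing the arrays. miR-15a lay below 0 and miR-15b above 0 in all 31, miR-322 lay below 0 in all 31, and miR-497 changed sign in 2. For miR-16 and miR-195 the reported differences, 0.01 and 0.02, were smaller than the shifts that some scalings gave to all tested miRNAs (-0.13 for the 75th percentile), so no direction was read for them; their signs turned in 14 and 12 alternatives. The miR-497 difference, 0.15, lay at the median over all tested miRNAs, 0.15, and was 0.027 with the 75th percentile over detected miRNAs. No direction was read for miR-497 either. On the log2 scale, leaving out the authors' values, the differences ranged from -0.49 to -0.10 for miR-15a, from 0.17 to 0.66 for miR-15b, from -0.74 to -0.26 for miR-322 and from -0.11 to 0.35 for miR-497. No alternative called more than 1 member.

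**Figure D5:**
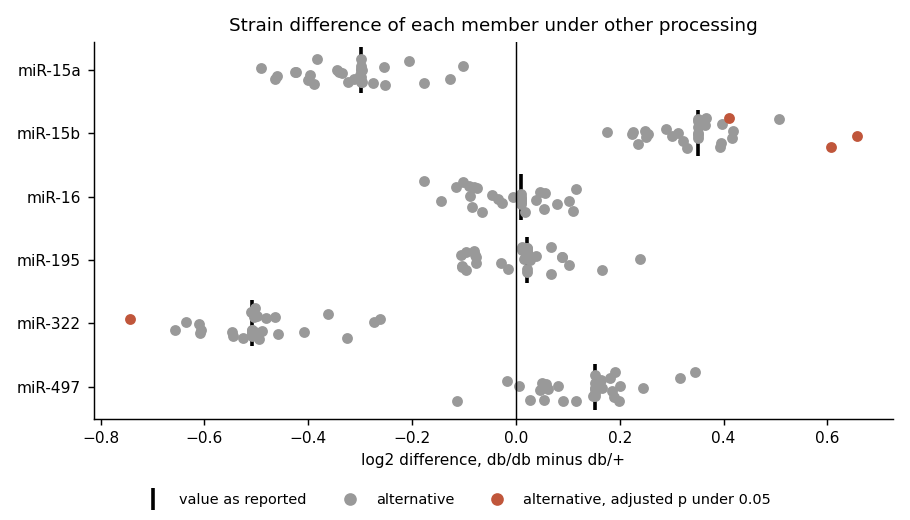
Log2 difference between the strains, db/db minus db/+ (x axis), of each member as reported (black bar) and under the alternatives run (points, with the authors' deposited values left out since their log base is not stated), coloured where the limma adjusted p was under 0.05. 3 alternatives called miR-15b, 1 of them without its 2 highest db/+ arrays, and 1 called miR-322, while the points of miR-16 and miR-195 lie on both sides of 0.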

How the data were processed

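Total RNA (100 ng) of 8 livers was labelled with Cy3 and hybridised to 1-colour Agilent mouse miRNA V1 arrays. Per the file headers, the deposited spot intensities are background-subtracted by Agilent Feature Extraction and are not scaled between arrays. The deposited table of the series holds raw median intensity per spot, and the authors' deposited score per miRNA is a log value of unstated base; per the series text they scaled by the global median and used SAM.

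Outlier spots were left out, spots and then probes were averaged, arrays were scaled to a common median of the 89 miRNAs that every array detected, values under 4.59 were set to that floor, and log2 was taken. Detection throughout either strain (4 of 4 arrays) admitted 127 miRNAs, which were fitted with limma 3.58.1 (R 4.3.3 and its package data.table), strain only, with Benjamini-Hochberg adjustment. Ratios of members were compared with two-sided exact permutation tests. Both tests were tested on simulated data, and figures were drawn with matplotlib 3.10.9. No miRNA spot was saturated.

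Every member was named, with its other strands, miRNAs sharing its seed letters, the neighbours of miR-322, the 3 closest profiles and up to 4 miRNAs per list by smallest p. Members and lists were chosen with earlier results of these data known. The fit of single probes and the fits without db/+ replicates 2 and 4 were added after seeing the data. Only replicate numbers 3 and 4 stand in the titles of both strains, and deviations from the strain means correlated at 0.04 and 0.31 between arrays of the same number, so the numbers were not taken as pairs. The arrays are of separate animals.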

Additional observations from a re-analysis of the deposited data

How the results depend on the processing

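Alternatives moved the count of called miRNAs from 19 to 0 (no scaling, limma, with 1 at an unadjusted p under 0.05), 4 (scaled to miR-122), 2 (normexp background), 1 (raw median intensities), 3 (the authors' deposited values), 12 (higher floor), 4 (no filter on detection), 42 (array weights), 9 (db/+ replicates 1 and 4 left out) and 11 to 20 (1 array left out). The replicate block gave 20 calls and 0 members and changed no member's call. The count of members, 0, became 1 under array weights, without db/+ replicates 2 and 4 and with the dimmer probe of each member alone, and was 0 to 1 with 1 array left out. In those 3 fits miR-15b passed limma's test, at 0.66, 0.61 and 0.41 (adjusted p = 0.039 for the last). miR-322 ranged from -0.74 to -0.41 with 1 array left out.

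miR-16 (0.01) turned to -0.12 with the 75th percentile, -0.074 with quantile normalization, -0.084 with cyclic loess, -0.026 without scaling, -0.088 scaled to miR-122, -0.18 with log2 probe means, -0.091 with detection by spots well above background, -0.14 without db/+ replicates 1 and 4, -0.045 without db/+ replicates 2 and 4, and -0.10 with the dimmer probe. miR-195 (0.02) turned to -0.10, -0.097, -0.078, -0.015 and -0.076 under the first 5 of these, -0.11 with normexp, -0.042 with the authors' deposited values, -0.095 with log2 probe means and -0.080 with spot detection. With 1 array left out miR-16 ranged from -0.080 to 0.079 and miR-195 from -0.10 to 0.10. miR-497 turned to -0.11 with normexp and -0.017 with log2 probe means. The 75th percentile, quantile and loess moved the median of all tested miRNAs by -0.13, -0.13 and -0.12. The part of such shifts in the turns was not tested.

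The dimmer miR-15b probe did not pass with the 75th percentile over detected (0.33) or all miRNAs (0.50), quantile (0.40), loess (0.34), no scaling (0.42), scaling to miR-122 (0.36), or without db/+ replicates 1 and 4 (0.34) or 2 and 4 (0.30); with 1 array left out it ranged from 0.36 to 0.50 and passed in 2 fits of 8. Of 375 pair values 16 turned, where the 375 include repeats from scalings, floors and summed probes that left the ratios unchanged. miR-15a over miR-322 became -0.0022 with quantile normalization and -0.10 without db/+ replicates 1 and 4. miR-16 over miR-195 became 0.023 (quantile), 0.21 (normexp), 0.090 (raw median), 0.061 (authors' values), 0.027 (brighter probe) and -0.13 to 0.11 (1 array left out). miR-16 over miR-497 became 0.22 (normexp), 0.063 (raw median), 0.014 (authors' values) and -0.27 to 0.0035 (1 array left out). miR-195 over miR-497 became 0.0078 (normexp) and 0.0067 (dimmer probe). The causes were not tested. The fits of single probes, of 1 probe per member and without db/+ replicates 2 and 4 were chosen after seeing the data. Low signal over background on db/+ replicate 4 limits the dimmer probes of miR-195, miR-322 and miR-497.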
